A study of Mus musculus with 18 samples.

Results

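The mRNAs of translation initiation and elongation factors were followed in primary mouse brain cultures and in their sEVs. These small extracellular vesicles are membrane-enclosed particles shed into the medium. The members were chosen by symbol: every initiation factor from Eif1 to Eif6 and every elongation factor of the Eef1 and Eef2 families, without the eIF2 and eEF2 kinases, the Y-linked Eif2s3y and pseudogenes, and with Tpt1 and Pabpc1 added. This gave 75 of the 54307 genes of the deposited table. The 18 libraries of poly(A) RNA form 6 groups of 3 replicates, astrocyte sEVs and astrocyte cells, microglia sEVs and microglia cells, and neuron sEVs and neuron cells. The study asks which mRNAs the vesicles of each cell type carry. All groups are primary cultures from mouse brain for which the labels name no treatment, and the labels give no strain, age, sex or number of animals. They do not say either whether replicates came from separate cultures, and p-values then measure only the spread between these libraries, which may be technical. RNA was taken from sEVs with a Micro kit and from a portion of the source cells with a Mini kit, so that the kit and the origin of the RNA cannot be told apart.

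Translation of an mRNA starts when the eIF4F complex (the cap-binding protein eIF4E, the scaffold eIF4G and the helicase eIF4A) prepares its 5′ end for a small ribosomal subunit that carries eIF1, eIF1A, eIF3, eIF5 and initiator tRNA bound to eIF2. Once the start codon is found, eIF5B joins the large subunit, and eEF1A and eEF2 then drive elongation by delivering aminoacyl-tRNAs and moving the ribosome along. Many mRNAs of the translation machinery itself begin with a 5′ terminal oligopyrimidine tract (TOP), a run of C and T at the cap that lets mTOR signalling set their translation together. Brain cells use the same machinery with some cell type forms, such as eEF1A2, which replaces eEF1A1 in mature neurons.

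The normalized counts of a library, the authors' scale for all values below, added up to between 36947428 and 69276566. The number of reads behind them could not be recovered. Microglia sEVs held few genes at a value of 10 or more, 7840 to 10059 against 13494 to 13804 in microglia cells. Astrocyte sEVs held 11470 to 13962 against 15700 to 16094 in astrocyte cells, and neuron sEVs 15157 to 15951 against 17063 to 18131 in neuron cells. The astrocyte, microglia and neuron markers each summed highest in the libraries of their labelled type, but markers of other types were found in all 3 cultures. The sum of 8 astrocyte markers was 112380 to 160361 in neuron sEVs and 135226 to 148408 in neuron cells, beside 136708 to 173464 and 271538 to 339606 for 10 neuron markers in the same libraries. In astrocyte cells the 8 astrocyte markers summed to 940283 to 1156410, those of neurons to 18585 to 24722 and 7 markers of oligodendrocytes to 230610 to 420873. Oligodendrocyte markers summed to 23978 to 84420 in neuron cells. Microglia cells held 387237 to 439603 for 10 microglia markers, 3726 to 14534 for astrocyte markers and 394 to 14606 for 6 fibroblast and meningeal markers. The part these cells play in the values below was not tested, and in such bulk samples fewer cells of a type and less RNA per cell cannot be told apart.

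Of the 75 members, 63 reached a normalized count of 10 in 3 or more libraries and were tested. The 12 others were Eif1ad2, Eif1ad3, Eif1ad4, Eif1ad6, Eif1ad7, Eif1ad8, Eif1ad16, Eif1ad19, Eif4a3l1, Eif4a3l2, Eif4e1b and Eef1ece2, and 8 of these were listed at 0 in every library. Differences are on the scale of log2(normalized count + 1), sEVs minus cells, with the SE of a limma fit across all 19612 genes tested. A called gene has an adjusted p (Benjamini-Hochberg, over all of these genes) below 0.05.

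Translation factor mRNA made up a larger share of the vesicle libraries than of the cell libraries in each cell type. The members grouped under elongation include Tpt1 and Eef1e1. They took 1.01% ± 0.195 of astrocyte sEVs against 0.268% ± 0.0513 of astrocyte cells and 0.514% ± 0.0513 of microglia sEVs against 0.249% ± 0.0183 of microglia cells. They took 1.65% ± 0.0329 of neuron sEVs against 0.279% ± 0.00672 of neuron cells (SD, n = 3 each, as throughout). The members together took 1.96% ± 0.356 of the normalized counts of astrocyte sEVs and 1.04% ± 0.187 of those of astrocyte cells. In microglia the shares were 1.60% ± 0.0740 in sEVs and 1.02% ± 0.0570 in cells, and in neurons 2.59% ± 0.0814 in sEVs and 0.954% ± 0.0492 in cells. No sEV library overlapped with a cell library of its type, and astrocyte sEV replicate 2 was the lowest of the astrocyte vesicles at 1.55%. Genes of the mitochondrial genome, which also enter the total, took 0.0614 to 0.515% of the sEV libraries and 0.939 to 7.10% of the cell libraries. Without these genes and the ferritin mRNA Ftl1 in the total, the members took 2.33% ± 0.292, 1.68% ± 0.0718 and 2.98% ± 0.050 of astrocyte, microglia and neuron sEVs, and 1.11% ± 0.186, 1.05% ± 0.0594 and 1.01% ± 0.0462 of the cells.

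**Figure D1:**
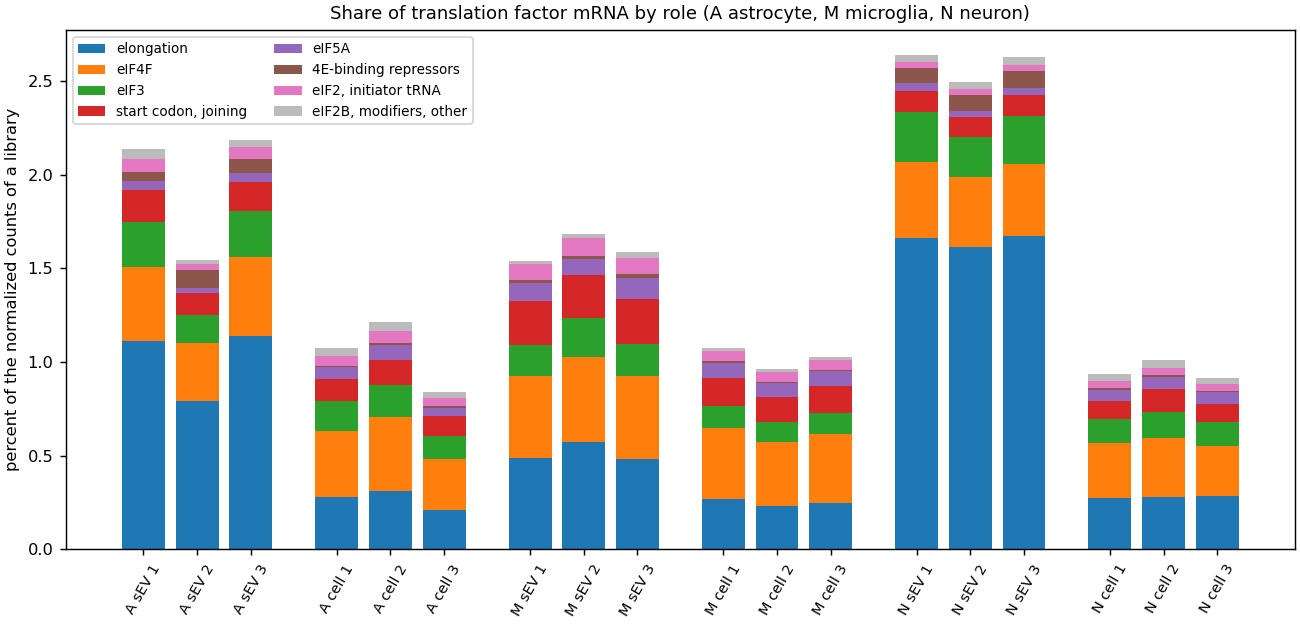
Percent of each library's normalized counts held by translation factor mRNAs, stacked by role, for the 18 libraries (1 bar a library, sEVs left of the cells of the same type). The elongation role, in blue and with Tpt1 and Eef1e1 included, takes 1.61 to 1.68% of the neuron sEV libraries and 0.273 to 0.286% of the neuron cell libraries.

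A list of 12 members with known TOP mRNAs was read apart from the other members. It holds Eef1a1, Eef1a2, Eef1b2, Eef1d, Eef1g, Eef2, Tpt1, Pabpc1, Eif4b, Eif3e, Eif3f and Eif3h. It was drawn up with results of these data known, so that its direction is a description. These mRNAs took 1.25% ± 0.244 of astrocyte sEVs against 0.343% ± 0.0664 of astrocyte cells and 0.665% ± 0.0830 of microglia sEVs against 0.351% ± 0.0252 of microglia cells. They took 2.0% ± 0.0616 of neuron sEVs against 0.346% ± 0.00165 of neuron cells. The members outside the list overlapped between sEVs and cells in 2 cell types, with 0.706% ± 0.112 in astrocyte sEVs and 0.701% ± 0.121 in astrocyte cells, and 0.587% ± 0.0225 in neuron sEVs and 0.608% ± 0.0498 in neuron cells. In microglia they took 0.939% ± 0.0209 of sEVs and 0.671% ± 0.0327 of cells, with no overlap. Within the pool of translation factor mRNA, the listed genes held 63.8% ± 1.0 in astrocyte sEVs, 41.4% ± 3.27 in microglia sEVs and 77.3% ± 0.359 in neuron sEVs, against 32.8% ± 0.654, 34.4% ± 0.690 and 36.3% ± 1.91 in the cells of these types. Eef1a1 alone was 33.4% ± 1.79 of the pool in astrocyte sEVs, 22.4% ± 1.67 in microglia sEVs and 39.5% ± 2.07 in neuron sEVs, against 14.7% ± 0.686, 17.1% ± 0.827 and 17.6% ± 0.604 in the cells.

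Averaged over the cell types, 28 of the 63 members tested were called higher in sEVs and 13 lower. Of all genes tested, 12% were called higher and 37.1% lower, and the median gene had a log2 difference of -0.93, so that a member at 0 stood above the median gene. The median member was at 0.18, the median of the 12 listed TOP mRNAs at 1.69 and that of the 51 other members at -0.10. Quantile normalization moved the median of all genes to 0.07, and with it the members had a median of 0.50 and the listed genes one of 1.87. Of the listed genes, 11 of 12 were called higher and none lower. Eef1a2 was the exception, at -1.02 ± 0.56 with an adjusted p of 0.15 in limma. Of the members called higher, 23 of 28 were called under every alternative, and Eef1d, Eif2b5, Eif3b, Eif3m and Eif4e2 were not. Of those called lower, 6 of 13 were called under every alternative, and Eef1akmt3, Eif2b3, Eif2s1, Eif3j2, Eif4e, Eif4g2 and Eif5a were not. Eef1akmt3 passed the filter through cell libraries alone, so its direction was fixed by the filter.

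By cell type the counts of members differed. In astrocytes 20 members rose in sEVs and 6 fell, where 8% of all genes were called higher and 18.6% lower. In microglia 12 rose and 3 fell, where 5.08% of all genes were called higher and 21.2% lower. In neurons 23 rose and 12 fell, where 11.1% of all genes were called higher and 18.9% lower. The median of the listed TOP mRNAs was 1.71 in astrocytes, 0.54 in microglia and 2.74 in neurons, with 10, 6 and 11 of the 12 called higher. The median of the other members was 0.08 in astrocytes, 0.09 in microglia and -0.19 in neurons, beside medians of all genes of -0.60, -0.79 and -0.47. A limma F test of the difference between the 3 vesicle effects was passed by 19 of the 63 members, against 21.6% of all genes. The effect was called larger in astrocytes than in microglia for 9 members and smaller for 2 (8.77% and 4.53% of all genes), larger in astrocytes than in neurons for 2 and smaller for 6 (2.47% and 2.63%), and larger in microglia than in neurons for 6 and smaller for 16 (7.82% and 12.9%). The microglia counts moved most with the scaling: with every library scaled to an equal total, 24 members in place of 12 rose in microglia sEVs.

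**Figure D2:**
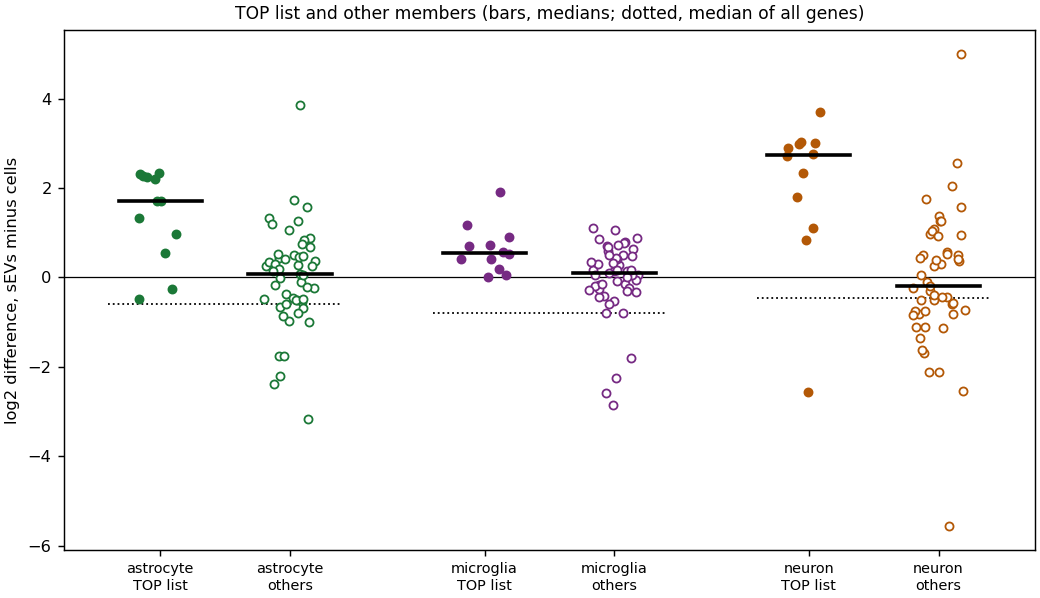
Log2 difference, sEVs minus cells, of each member tested in the 3 cell types, for the 12 listed TOP mRNAs (filled) and the 51 others (open), with black bars at the medians and a dotted line at the median of all 19612 genes. The listed genes have medians of 1.71, 0.54 and 2.74 in astrocytes, microglia and neurons, and the other members spread around 0 in each type.

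A TOP mRNA is defined by the C and T at its cap, so the annotated starts of some members are shown. RefSeq promoter sequences on GRCm38.p6, another build than the GRCm39 of the deposited values, were matched by symbol to 47 of the 63 members. Windows of 30 bases before to 30 bases after the annotated start were searched on the transcribed strand for the longest unbroken run of C and T. Below are 3 listed genes that rose in sEVs and 4 members outside the list, 3 that fell and Eif4ebp2, which rose. Capitals mark the longest run of C and T of each window, and the start lies between the thirtieth and the following base.
Eef1a1, chr9:78481695-78481754, minus strand: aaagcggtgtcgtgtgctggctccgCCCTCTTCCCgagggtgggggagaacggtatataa
Eef2, chr10:81176601-81176660, plus strand: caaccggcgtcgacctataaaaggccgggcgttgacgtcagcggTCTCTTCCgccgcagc
Eif3f, chr7:108934385-108934444, plus strand: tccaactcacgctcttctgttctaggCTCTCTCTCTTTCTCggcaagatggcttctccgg
Eif3l, chr15:79075193-79075252, plus strand: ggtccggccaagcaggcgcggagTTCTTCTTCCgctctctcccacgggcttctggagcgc
Eif4a1, chr11:69672394-69672453, minus strand: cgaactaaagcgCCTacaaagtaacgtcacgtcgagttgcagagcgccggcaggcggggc
Eif4g1, chr16:20672697-20672756, plus strand: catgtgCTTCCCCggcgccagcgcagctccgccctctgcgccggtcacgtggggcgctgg
Eif4ebp2, chr10:61452640-61452699, minus strand: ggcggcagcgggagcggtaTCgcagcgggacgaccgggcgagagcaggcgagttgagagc

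The longest run had 10 bases in Eef1a1, 8 in Eef2 and 15 in Eif3f. It spanned the annotated start of Eef1a1 and Eif3f and began 14 bases after that of Eef2. It had 3 bases in Eif4a1, 7 in Eif4g1 and 2 in Eif4ebp2. Eif3l had 10 bases across its start and fell in sEVs. Eif2s3x, with 16 bases across its start, was at 0.14 ± 0.12 for the mean of the cell types (limma adjusted p = 0.36). Among the listed genes with a sequence, Eef1b2, Eif4b and Tpt1 held runs of only 4, 7 and 4 bases in the window and were called higher. Eef1a2, also listed, held a run of 12 bases that ended before its start and was not called. Outside the list, Eif2b5, Eif3k and Eif3m were called higher for the mean of the cell types. Their runs had 21 bases across the start, 11 after it and 11 before it. Eif4e, with a longest run of 13 bases, was called lower. A run of at least 8 bases was found in 4 of 7 listed genes (57.1%), 9 of 40 other members (22.5%), 33 of 58 genes of cytosolic ribosomal proteins (56.9%) and 25.8% of all 27025 genes with a promoter sequence. These counts take a run anywhere in the window, so they do not measure runs at the start. Among the listed genes such a run crossed the start in Eef1a1 and Eif3f only, and among the other members in Eif2b5, Eif2s3x and Eif3l only. Runs of 8 or more A and G, the same letters on the opposite strand, were found in 2 of the 7 listed genes (28.6%), in 22.5% of the other members, in 13.8% of the ribosomal protein genes and in 28.7% of all genes. A match of letters at an annotated start is a description and does not place the start used in these cells.

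Of the 8 members tested under elongation, Tpt1 and Eef1e1 included, 6 were called higher and none lower for the mean of the cell types. The shares of all genes were 12% higher and 37.1% lower. Eef1a1 encodes eEF1A1, which carries aminoacyl-tRNA to the ribosome, and it was the highest member per kilobase of transcript in all 6 groups. Eif4g2, whose annotated principal transcript is a short fragment, was set aside from this order. Eef1a1 had 525422, 561877 and 521696 normalized counts in neuron sEVs, against 69386, 74742 and 70737 in neuron cells. Astrocyte sEVs held 308438, 261678 and 292027, against 62493, 66419.6 and 51947 in astrocyte cells. Microglia sEVs held 179102, 221824 and 185457, against 126406, 112647 and 115725 in microglia cells. All sEV libraries lay above all cell libraries of their type, and the log2 difference was 2.26 ± 0.09 in astrocytes, 0.72 ± 0.09 in microglia and 2.90 ± 0.09 in neurons (limma adjusted p = 6.7e-10, 3.4e-05 and 2.5e-11). The vesicle effect was smaller in microglia than in neurons, with a log2 difference of -2.18 ± 0.13, and smaller in astrocytes than in neurons, with one of -0.65 ± 0.13 (limma adjusted p = 6.3e-08 and 0.0076). In astrocyte cells it was followed per kilobase by Eif4a1 and Eif5a, at 21870.1 ± 3165 and 16482 ± 3033 against 33604 ± 4172 for Eef1a1. In astrocyte sEVs the next were Eef1g and Eef2, at 29243 ± 2719 and 23608 ± 4539 against 160190.1 ± 13224, and the SDs of these neighbours overlapped. Neuron sEVs had Tpt1 and Eef1g next, at 58858 ± 13266 and 57234 ± 2776 against 298959 ± 12375, and neuron cells Eif5a and Eif4a1, at 17303 ± 1602 and 14814 ± 1152 against 39923 ± 1553. In microglia the order was the same in sEVs and cells, with Eif4a1 and Eif5a next, at 39719 ± 4130 and 37864 ± 5447 in sEVs and 41178 ± 2187 and 36347 ± 1417 in cells. Transcripts of 8 pseudogenes near-identical to Eef1a1 took at most 1.18% of their sum with it.

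Eef1a2 encodes the neuronal and muscle form eEF1A2 and was found in the neuron cultures. Neuron sEVs held 14.4, 0 and 46.5 and neuron cells 52.0, 38.7 and 71.0 normalized counts, with overlap. It was listed at 0 in every other library except astrocyte cell replicate 3, which had 1.77, and the difference between neuron sEVs and neuron cells was not called (-2.56 ± 0.98, limma adjusted p = 0.061).

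Eef2 encodes the translocase eEF2, which moves the ribosome by a codon. Neuron sEVs held 114092, 117227 and 112212 normalized counts, against 16444, 13841 and 21087 in neuron cells. In astrocyte sEVs the values were 57611, 76044 and 85126, against 14860.0, 15437 and 12913 in astrocyte cells. Microglia sEVs, at 21469, 27231 and 21890.1, also lay above microglia cells, at 17513, 16895 and 18770.1, in each library, but the call was missed there (0.40 ± 0.15, limma adjusted p = 0.066). Eef2 rose by 2.33 ± 0.15 in astrocytes and 2.76 ± 0.15 in neurons (limma adjusted p = 6.5e-08 and 5.1e-09), and its effect in microglia was smaller than in neurons, with a log2 difference of -2.36 ± 0.22 (limma adjusted p = 2e-06).

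The exchange factor eEF1B, which reloads eEF1A with GTP, was uneven between its subunits. The catalytic alpha subunit Eef1b2 rose in all 3 types. It had 39540.1, 31409 and 39115 normalized counts in neuron sEVs, against 4754, 4609 and 4553 in neuron cells, and log2 differences of 1.33 ± 0.16 in astrocytes, 1.17 ± 0.16 in microglia and 2.98 ± 0.16 in neurons. The structural gamma subunit Eef1g rose too, by 1.71 ± 0.10, 0.41 ± 0.10 and 2.72 ± 0.10 in the same order (limma adjusted p = 1.7e-08, 0.0054 and 5.2e-11). The microglia call of Eef1g was lost in 2 of 30 alternatives (adjusted p 0.000365 to 0.242). The second catalytic subunit, Eef1d, rose in neuron sEVs by 0.84 ± 0.22 (limma adjusted p = 0.0095) and was not called in the other two types. With every library scaled to an equal total the neuron call was lost too, the only one of 30 alternatives in which it was (adjusted p over them 0.000497 to 0.144). Its values overlapped in astrocytes, 4019.8, 3028 and 5017 in sEVs and 4201, 5118 and 4929 in cells. Eef1e1, whose product is known from the aminoacyl-tRNA synthetase complex, was not called between sEVs and cells of any type.

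Tpt1 encodes the translationally controlled tumour protein, which binds eEF1A and its exchange factor. Its log2 difference for the mean of the cell types was 2.60 ± 0.11, the largest of the elongation role. Neuron sEVs held 82067, 51754 and 72594 normalized counts, against 4763, 5587 and 5194 in neuron cells. Microglia sEVs held 23494, 21947 and 16874, against 5787, 5429 and 5229.7 in microglia cells, and astrocyte sEVs 21305, 14083 and 15699, against 3750.3, 4001 and 3246 in astrocyte cells. The groups did not overlap, and in microglia, with a log2 difference of 1.91 ± 0.18 (limma adjusted p = 2e-06), Tpt1 was the largest increase of any member. Near-identical pseudogenes took 9.39 to 18.4% of their sum with Tpt1, so part of its reads may have been assigned to them.

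**Figure D3:**
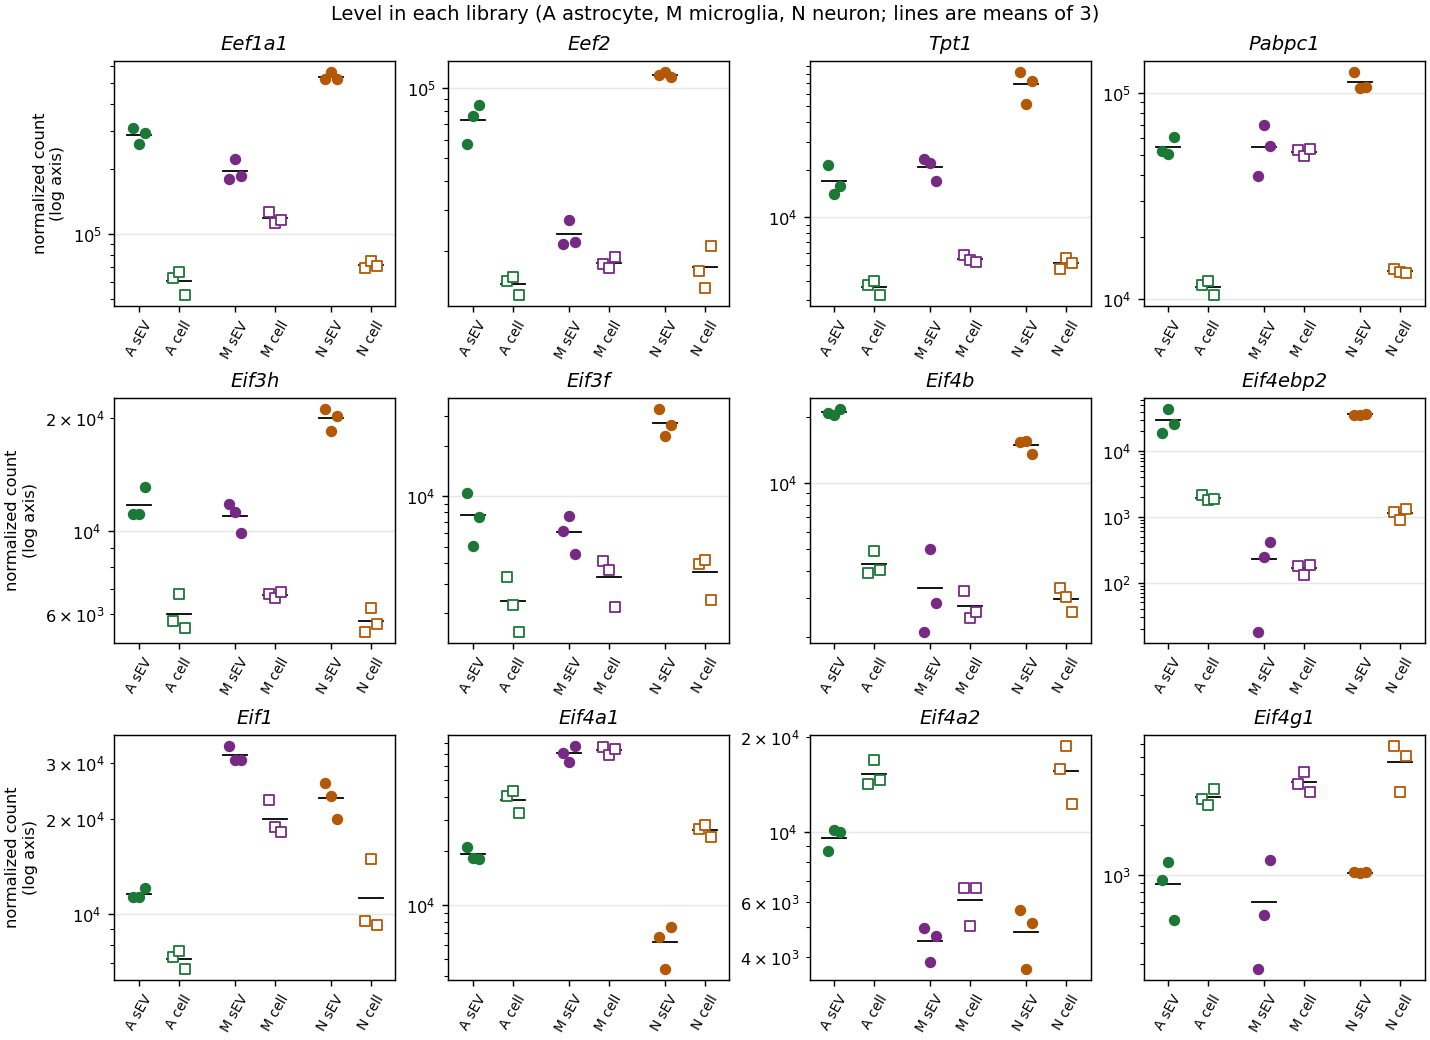
Normalized counts (log axis) of 12 members in each of the 18 libraries, sEVs (circles) left of cells (squares) for astrocytes (A), microglia (M) and neurons (N), with lines at the means of 3 replicates. Eef1a1, Tpt1, Eif3h and Eif1 lie higher in the sEVs of every type, Pabpc1, Eif4b and Eif4ebp2 separate in astrocytes and neurons and overlap in microglia, and Eif4g1 lies lower in the sEVs of every type.

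The cap-binding machinery held members that rose and members that fell. Of 12 members tested, 4 rose for the mean of the cell types (Pabpc1, Eif4b, Eif4h and Eif4e2) and 6 fell (Eif4a1, Eif4a2, Eif4e, Eif4g1, Eif4g2 and Eif4g3), where 12% of all genes were called higher and 37.1% lower. Pabpc1, the cytoplasmic poly(A)-binding protein that bridges the tail to eIF4G, had 125392, 105586 and 106798 normalized counts in neuron sEVs against 14048, 13524 and 13466 in neuron cells. Astrocyte sEVs held 51886, 50566 and 61091, against 11751, 12324 and 10484 in astrocyte cells. In microglia the groups overlapped, with 39306, 69949 and 55232 in sEVs and 52798, 49179 and 53101 in cells. The log2 differences were 2.24 ± 0.15, 0.05 ± 0.15 and 3.04 ± 0.15 in astrocytes, microglia and neurons (limma adjusted p = 8.1e-08, 0.98 and 1.7e-09). The effect in microglia differed from that in neurons by -2.99 ± 0.21 (limma adjusted p = 2.5e-07). Microglia cells held more Pabpc1 than the other cells, with a log2 difference of 1.92 ± 0.09 for microglia minus neuron cells and of -2.17 ± 0.09 for astrocyte minus microglia cells (limma adjusted p = 2.2e-07 and 1.7e-07).

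Eif4b and Eif4h encode RNA-binding cofactors that stimulate the helicase eIF4A. Eif4b had 20861, 20569 and 21869 normalized counts in astrocyte sEVs against 3909, 4909.8 and 4040.0 in astrocyte cells, and 15437, 15668 and 13637 in neuron sEVs against 3338, 3033 and 2577 in neuron cells. Microglia sEVs (2104, 5011 and 2842) overlapped with microglia cells (3214, 2435 and 2596). Eif4h had the same pattern, with rises of 1.33 ± 0.27 in astrocytes and 1.76 ± 0.27 in neurons and a value of -0.34 ± 0.27 in microglia (limma adjusted p = 0.0019, 0.00014 and 0.42). Its astrocyte call was lost without astrocyte sEV replicates 2 and 3 (adjusted p over the alternatives 2.09e-05 to 0.0555). For both genes the astrocyte effect exceeded that of microglia, by 2.12 ± 0.34 for Eif4b and 1.67 ± 0.38 for Eif4h (limma adjusted p = 0.00057 and 0.0083).

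The helicases themselves fell in astrocyte and neuron sEVs. Eif4a1, the main eIF4A of dividing cells, had 6624, 4408 and 7545 normalized counts in neuron sEVs against 26688, 28087 and 24062 in neuron cells. It had 21151, 18279.6 and 18157 in astrocyte sEVs against 40681, 43228 and 32484 in astrocyte cells. Its log2 differences were -2.12 ± 0.16 in neurons and -1.01 ± 0.16 in astrocytes (limma adjusted p = 1.3e-07 and 0.00029). Microglia sEVs, at 70804, 62969.5 and 77609, overlapped with microglia cells, at 76381, 68789 and 73978. The effect in microglia differed from that in neurons by 2.06 ± 0.23 (limma adjusted p = 1.2e-05). Eif4a2, the form abundant in brain, had 5652, 3689 and 5138 in neuron sEVs against 15823, 18716 and 12238 in neuron cells. It had 8661, 10097 and 9983 in astrocyte sEVs against 14153, 16895 and 14535 in astrocyte cells. In microglia it had 4967, 3875 and 4680.1 in sEVs and 6619, 5013 and 6633 in cells, without overlap and without a call. Its log2 differences in neurons and astrocytes were -1.69 ± 0.19 and -0.66 ± 0.19 (limma adjusted p = 7.5e-06 and 0.018). The astrocyte call was lost in 4 of 30 alternatives (adjusted p 0.00848 to 0.102), among them without astrocyte sEV replicate 1 and without astrocyte cell replicate 2. The number of Eif4b counts for each Eif4a1 count, a ratio within a library that no scaling between libraries alters and that is not corrected for length, was 0.986 to 1.20 in astrocyte sEVs against 0.0961 to 0.124 in astrocyte cells, and 1.81 to 3.55 in neuron sEVs against 0.107 to 0.125 in neuron cells. In microglia it was 0.0297 to 0.0796 in sEVs and 0.0351 to 0.0421 in cells. Eif4a3, the helicase of the exon junction complex, was not called between sEVs and cells of any type. It had 2013, 567 and 1669 in neuron sEVs and 2386, 1853 and 2425 in neuron cells, and 1092, 1798 and 2681 in astrocyte sEVs and 3574, 3672 and 3109 in astrocyte cells. In microglia it had 4143, 4844 and 3834 in sEVs and 3147, 3231 and 3778 in cells.

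Eif4g1, the scaffold that holds the complex together, fell in the vesicles of each type. It had 1043, 1033 and 1041 normalized counts in neuron sEVs against 5870.4, 3114 and 5081 in neuron cells. Astrocyte sEVs held 934, 1206 and 542, against 2827, 2624 and 3256 in astrocyte cells, and microglia sEVs 281, 584 and 1232, against 3496, 4083 and 3139 in microglia cells. No groups overlapped, with log2 differences of -1.77 ± 0.44, -2.60 ± 0.44 and -2.12 ± 0.44 in astrocytes, microglia and neurons (limma adjusted p = 0.0081, 0.00048 and 0.0018). The astrocyte call was lost without astrocyte sEV replicates 2 and 3 together (adjusted p over the alternatives 0.000859 to 0.0607). Its relative Eif4g3 fell in microglia, where sEVs held 929, 80.1 and 209 and cells 1576, 2079.7 and 1837 (-2.86 ± 0.66, limma adjusted p = 0.0047), a call lost in a fit of the microglia libraries alone (adjusted p over the alternatives 4.91e-05 to 0.0641). It overlapped in the other types, at 2965, 3608 and 3229 in neuron sEVs and 5432, 3588 and 6039 in neuron cells, and 927, 3041 and 929.6 in astrocyte sEVs and 2269, 2182 and 2245 in astrocyte cells. Eif4g2, a scaffold of cap-independent initiation that lacks the eIF4E site, had a log2 difference of -0.29 ± 0.08 for the mean of the cell types (limma adjusted p = 0.011). The cap-binding protein Eif4e fell in neuron sEVs (-1.12 ± 0.26, limma adjusted p = 0.0043), and held 5562, 3023 and 3239.9 there against 7004, 11041 and 7285 in neuron cells. The related Eif4e2, whose product binds the cap without eIF4G and represses translation, was higher in microglia than in the other 2 types, at 16785, 13593 and 12893 in microglia sEVs and 9037, 8059 and 9385 in microglia cells.

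The largest rise of any member was that of a repressor of eIF4E. Eif4ebp2, the 4E-binding protein that predominates in brain, had 35207, 36020.0 and 37417 normalized counts in neuron sEVs against 1207, 904 and 1324 in neuron cells. Astrocyte sEVs held 19119, 43889.6 and 25563, against 2133, 1798 and 1872 in astrocyte cells. Its log2 difference of 5.0 ± 0.78 in neurons was the largest rise of any member in any type, and in astrocytes it was 3.85 ± 0.78 (limma adjusted p = 0.00016 and 0.0019). In microglia it was low in both, 17.9, 241 and 418 in sEVs and 181, 132 and 186 in cells, with overlap and no call (-0.41 ± 0.78, limma adjusted p = 0.83). The effect in microglia differed from that in neurons by -5.41 ± 1.10, and the effect in astrocytes exceeded that in microglia by 4.26 ± 1.10 (limma adjusted p = 0.0026 and 0.018). Per Eif4e count, without correction for length, there were 2.63 to 7.17 of Eif4ebp2 in astrocyte sEVs against 0.165 to 0.204 in astrocyte cells, and 6.33 to 11.9 in neuron sEVs against 0.0819 to 0.182 in neuron cells. Eif4ebp2 is not on the TOP list, and its annotated start printed above holds no run of C and T over 2 bases.

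Eif4ebp1, the paralog that mTOR controls in most tissues, rose in all 3 types. Neuron sEVs held 7735, 9335 and 7681 normalized counts, against 1169, 2043 and 1144 in neuron cells, and astrocyte sEVs 1887, 3321 and 3451, against 734, 797 and 1379 in astrocyte cells. Microglia sEVs held 7688, 6529 and 7608, against 4350.3, 4143 and 3495 in microglia cells. The log2 differences were 1.58 ± 0.30, 0.87 ± 0.30 and 2.55 ± 0.30 in astrocytes, microglia and neurons (limma adjusted p = 0.0012, 0.046 and 1.2e-05). The microglia call was lost in 15 of 30 alternatives (adjusted p 0.00498 to 0.275), among them every fit that left out 1 microglia library. The astrocyte call was lost without astrocyte sEV replicates 2 and 3 together (adjusted p over the alternatives 0.000443 to 0.0669). Eif4ebp3 and Eif4enif1, whose product carries eIF4E into the nucleus, were not called between sEVs and cells of any type.

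The subunits of eIF3, the largest initiation complex, were called in both directions. Of its 14 members 9 rose for the mean of the cell types, 3 fell and 2, Eif3d and Eif3g, were not called. Of all genes, 12% were called higher and 37.1% lower. The 3 subunits on the TOP list rose, Eif3f (1.87 ± 0.20), Eif3h (1.15 ± 0.07) and Eif3e (0.73 ± 0.10), and Eif3k (1.19 ± 0.10), Eif3a (1.16 ± 0.16) and Eif3i (0.92 ± 0.10) outside it rose too. Eif3f, a subunit with an MPN domain, had 33186, 22955 and 26457 normalized counts in neuron sEVs against 3923, 4174 and 2409 in neuron cells. It had 10444, 5041 and 7518 in astrocyte sEVs against 3302, 2221 and 1546 in astrocyte cells. It had 6183, 7611 and 4504 in microglia sEVs against 4094, 3601 and 2176 in microglia cells, where it missed the call (limma adjusted p = 0.069). Eif3h, the other MPN subunit, rose in all 3 types. It had 21109, 18457 and 20215 in neuron sEVs against 5369.8, 6231 and 5632 in neuron cells, and 11064, 11055 and 13072 in astrocyte sEVs against 5733, 6761 and 5512 in astrocyte cells. It had 11802, 11203 and 9838 in microglia sEVs against 6764, 6606 and 6870.5 in microglia cells. These were rises of 0.97 ± 0.12, 0.69 ± 0.12 and 1.79 ± 0.12 in astrocytes, microglia and neurons, and the astrocyte and neuron effects differed by -0.83 ± 0.16 (limma adjusted p = 0.0071).

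Eif3a, the scaffold subunit, rose in all 3 types. In astrocytes it had 19486, 16350.4 and 21792 normalized counts in astrocyte sEVs against 5521, 5868 and 5892 in astrocyte cells (1.73 ± 0.27, limma adjusted p = 0.00026). Its values were 14516, 8386 and 17025 in neuron sEVs against 6070.0, 6243 and 7511 in neuron cells, and 9573, 20029 and 9934 in microglia sEVs against 8149, 6547 and 6892 in microglia cells. The neuron call was lost in 5 of 30 alternatives (adjusted p 0.000715 to 0.125), among them without neuron sEV replicates 1 or 3 or neuron cell replicate 1. The microglia call was lost in 19 of 30 alternatives (adjusted p 0.0111 to 0.19), among them without microglia sEV replicate 2 and every fit that left out 1 microglia cell library. The core subunit Eif3c fell, with log2 differences of -0.79 ± 0.23 in astrocytes and -1.10 ± 0.23 in neurons, and so did Eif3l, with -0.61 ± 0.18 and -0.76 ± 0.18 (limma adjusted p = 0.018, 0.0018, 0.021 and 0.0046). In astrocytes the call of Eif3c was lost in 4 of 30 alternatives (adjusted p 0.00298 to 0.0873), among them without astrocyte sEV replicate 1 and without astrocyte cell replicate 2. That of Eif3l was lost in 9 of 30 alternatives (adjusted p 0.00511 to 0.115), among them without astrocyte sEV replicates 1 or 2 or astrocyte cell replicates 2 or 3. Neuron sEVs held 3883, 4681 and 3624 of Eif3c, against 8296, 10631 and 7377 in neuron cells. The ratio of Eif3h to Eif3c counts within a library was 3.94 to 5.58 in neuron sEVs against 0.586 to 0.764 in neuron cells, 1.67 to 3.07 in astrocyte sEVs against 0.624 to 0.724 in astrocyte cells, and 0.520 to 1.06 in microglia sEVs against 0.346 to 0.373 in microglia cells. Eif3j1 (1.19 ± 0.26) and Eif3j2 (-2.74 ± 1.09) are near-identical copies whose reads the quantification could split either way, so their opposite calls are uncertain. Eif3j2 had 3.33, 75.4 and 0 in neuron sEVs against 374, 654 and 142 in neuron cells, 194, 0 and 729 in astrocyte sEVs against 578, 299 and 596 in astrocyte cells, and 1217, 1315 and 756 in microglia sEVs against 1048, 797 and 509 in microglia cells.

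Among the factors of start codon selection and subunit joining, 4 of 7 were called higher for the mean of the cell types (Eif1, Eif1b, Eif1ax and Eif6) and none lower. Of all genes, 12% were called higher and 37.1% lower. Eif1, which holds the scanning ribosome open until a start codon is met, had 26032, 23713 and 20029 normalized counts in neuron sEVs against 9499, 14943 and 9263 in neuron cells, and 11316, 11323 and 12151 in astrocyte sEVs against 7309, 7657 and 6742 in astrocyte cells. It had 34127, 30825 and 30777 in microglia sEVs against 23005, 18874 and 18261 in microglia cells. The rises were 0.68 ± 0.16, 0.68 ± 0.16 and 1.08 ± 0.16 in astrocytes, microglia and neurons (limma adjusted p = 0.005, 0.0052 and 9.7e-05). The astrocyte call was lost in 3 of 30 alternatives (adjusted p 0.000379 to 0.0773) and the microglia call was lost in 2 of 30 alternatives (adjusted p 0.000401 to 0.127), none of these by leaving out a single library. Near-identical genes took 1.47 to 12.3% of their sum with it. Eif1a, which encodes eIF1A, was higher in microglia than in astrocytes, with 2435, 1377 and 2497 in astrocyte sEVs against 28534, 22002 and 21885 in microglia sEVs and 1925, 2087 and 1399 in astrocyte cells against 20937, 21113 and 22018 in microglia cells. The GTPase-activating protein Eif5 had a log2 difference of 0.10 ± 0.06 as the mean of the 3 types, which was not called (limma adjusted p = 0.18).

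The eIF2 complex, which brings initiator tRNA and is the target of the integrated stress response, differed between its subunits. The alpha subunit Eif2s1, which the stress kinases phosphorylate, had 1537, 1345 and 1753 normalized counts in neuron sEVs against 4099, 4219 and 3514 in neuron cells, a log2 difference of -1.36 ± 0.20 (limma adjusted p = 0.00012). In microglia it was 24050.3, 22926 and 22870.5 in sEVs and 15635, 17142 and 17189.9 in cells, without overlap but short of a call (0.48 ± 0.20, limma adjusted p = 0.098). The vesicle effects of microglia and neurons differed by 1.84 ± 0.29 (limma adjusted p = 0.00031). The beta subunit Eif2s2 rose in microglia sEVs, with 17744, 20961 and 15966 against 10676, 9701 and 9368 in microglia cells (0.87 ± 0.21, limma adjusted p = 0.0071), a call lost with library weights (adjusted p over the alternatives 0.00155 to 0.052). The gamma subunit Eif2s3x fell there, with 2471, 3236 and 3422 against 5210.5, 3965 and 4551 in microglia cells (-0.59 ± 0.21, limma adjusted p = 0.048), a call lost in 21 of 30 alternatives (adjusted p 0.0292 to 0.529), among them every fit that left out 1 microglia cell library. In astrocytes Eif2s3x had 10395, 7082 and 10287 in sEVs and 6182, 8185 and 5438 in cells, with overlap. In neurons it had 5715, 6622 and 6056 in sEVs and 4519.5, 4807 and 3592 in cells, without overlap, and neither difference was called.

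Of the 5 subunits of eIF2B, the exchange factor that recharges eIF2, Eif2b5 rose in neuron sEVs, with 3391, 2714 and 3466 normalized counts against 1507, 1336 and 930.0 in neuron cells (1.36 ± 0.44, limma adjusted p = 0.028). Its neighbour in the catalytic core, Eif2b3, fell for the mean of the cell types (-1.34 ± 0.46, limma adjusted p = 0.025), with 879, 332 and 456 in neuron sEVs against 1643, 1680.4 and 1429.6 in neuron cells and 1204, 55.3 and 625 in astrocyte sEVs against 1729.9, 1649 and 1440.0 in astrocyte cells. Its values overlapped in microglia, 1033, 1638 and 2410.3 in sEVs and 1721, 1899 and 1886 in cells. The call of Eif2b5 was lost in 5 of 30 alternatives (adjusted p 0.00054 to 0.111), among them without neuron sEV replicates 1 or 3 or neuron cell replicates 2 or 3. That of Eif2b3 was lost without neuron sEV replicate 2 (adjusted p over the alternatives 0.00388 to 0.0501). Eif5a, which relieves stalled ribosomes and carries hypusine, fell, with log2 differences of -0.51 ± 0.15 in astrocytes and -0.43 ± 0.15 in neurons (limma adjusted p = 0.021 and 0.042). The astrocyte call was lost in 10 of 30 alternatives (adjusted p 0.00834 to 0.183), among them without astrocyte sEV or cell replicates 1 or 2. The neuron call was lost in 13 of 30 alternatives (adjusted p 0.011 to 0.258), among them without neuron sEV or cell replicates 2 or 3. Its values were 52793, 47519 and 62922 in microglia sEVs and 50513, 51698 and 54481 in microglia cells, and 16359, 13948 and 19391 in astrocyte sEVs and 23593, 28087 and 19372 in astrocyte cells. Neurons had 20579, 15642 and 19261 in sEVs and 22649, 27245 and 24699 in cells, without overlap. The 5 methyltransferases of eEF1A gave 1 call for the mean of the cell types, Eef1akmt3, lower in sEVs at values of at most 27.5 in any library. It reached 10 only in cell libraries, at 17.3 and 12.8 in astrocyte cells and 27.5 in neuron cells. The filter thus fixed the direction of this call, which is no result about the gene. That call was lost with library weights and with quantile normalization, where its sign turned.

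**Figure D4:**
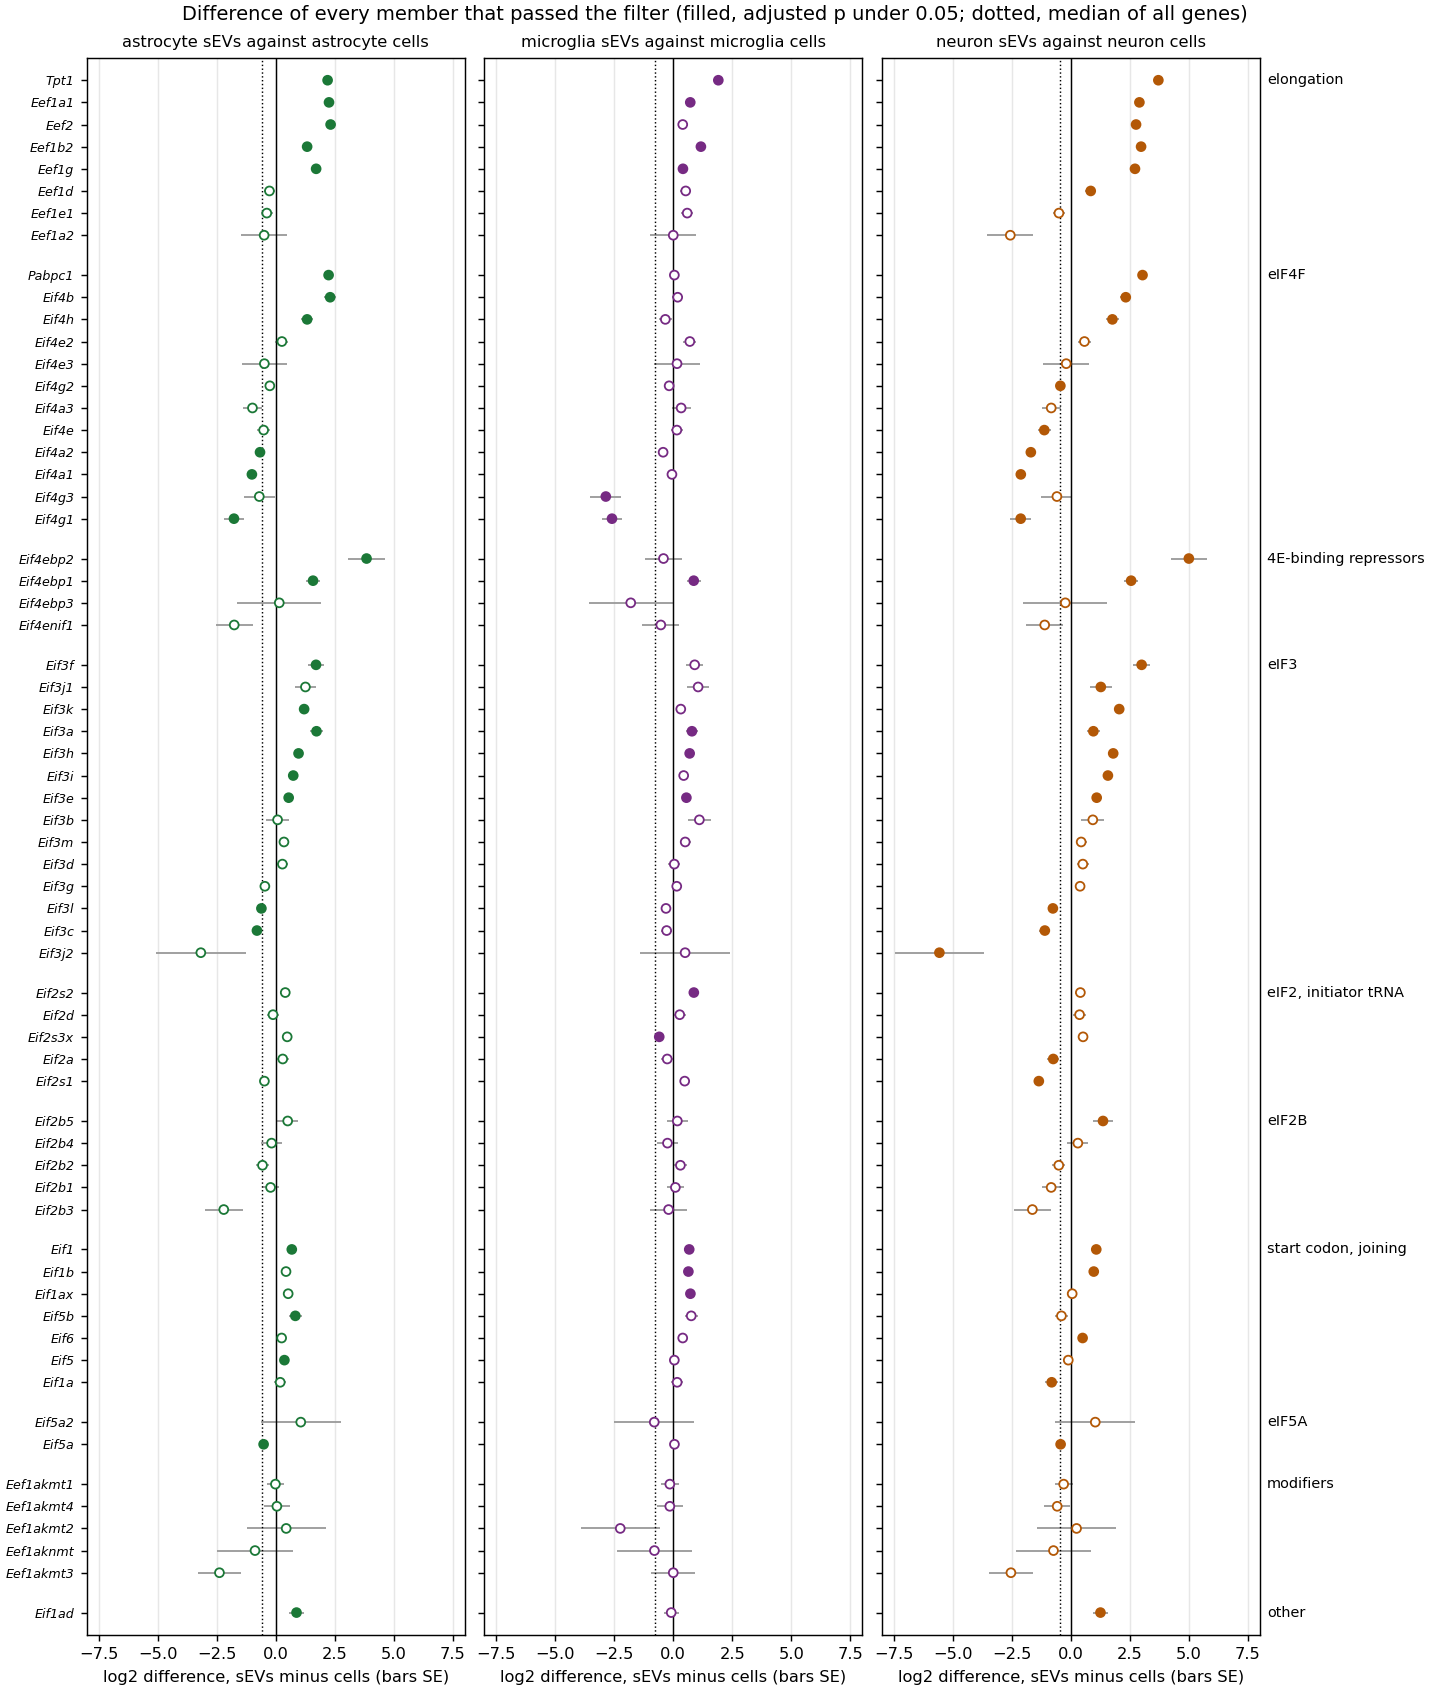
Log2 difference, sEVs minus cells, with its SE, of the 63 members tested, ordered by role and by their mean over the cell types, in astrocytes, microglia and neurons. Filled points passed the limma test at an adjusted p under 0.05, and the dotted line marks the median of all genes at -0.60, -0.79 and -0.47. Within the eIF4F and eIF3 roles filled points lie on both sides of 0.

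A wider list of pathway genes outside the members was read beside them. Of 47 tested genes for kinases, phosphatase parts, the mTOR arm, release, recycling and modification, 7 rose and 6 fell for the mean of the cell types, with a median of -0.56, against 12% and 37.1% of all genes and their median of -0.93. The largest of these rises were Dph3 (1.17 ± 0.17), a part of the diphthamide pathway that modifies eEF2, Ppp1r15b (1.16 ± 0.16), which directs the phosphatase that restores eIF2, and the double-stranded RNA-activated kinase Eif2ak2 (1.04 ± 0.27), with limma adjusted p of 6.1e-05, 3.3e-05 and 0.0048. Ppp1r15b fell in microglia sEVs, at -1.09 ± 0.28, and rose by 2.37 ± 0.28 in astrocyte and 2.21 ± 0.28 in neuron sEVs (limma adjusted p = 0.0093, 1.8e-05 and 2.4e-05). The microglia effect differed from the other two, with limma adjusted p of 2.4e-05 against astrocytes and 2.6e-05 against neurons. Dph3 and Eif2ak2 were called higher in neurons, at 2.15 ± 0.30 and 1.95 ± 0.46, and not called in the other two types (limma adjusted p = 6.4e-05 and 0.0046 in neurons). The largest of these falls were the endoplasmic reticulum stress kinase Eif2ak3 (-3.66 ± 0.94), the diphthamide enzyme Dph2 (-3.48 ± 1.24) and the heme-regulated kinase Eif2ak1 (-3.37 ± 1.10), with limma adjusted p of 0.005, 0.031 and 0.02. Of 20 aminoacyl-tRNA synthetases 17 fell and 3 rose, with a median of -0.87. Of 8 mitochondrial translation factors 2 were called lower and none higher, with a median of -1.29. Cytosolic ribosomal protein genes, which are TOP mRNAs too, rose in 76 of 78, with a median of 1.70 beside the 1.69 of the listed factors. These counts stand against the same 12% higher and 37.1% lower of all genes.

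Across the 18 libraries, the genes outside the members whose levels were most like the mean z-score of the 12 listed TOP mRNAs were all ribosomal protein genes. They were Rps3a1 (Pearson's r = 0.992), Rps3 (0.990), Rpl3 (0.990), Rpl11 (0.989) and Rpl8 (0.987), as a description of libraries that fall into 6 groups. Across 62 members, those tested other than Eif4g2, Spearman's rho between length and the log2 difference was -0.05 for the mean of the cell types. GC content gave a rho of 0.05. The members are not independent, and no test was made. Length was 1169 to 3854 bases with a median of 2012 in the listed genes and 744 to 7797 with a median of 2333 in the others.

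The cell types were also compared with each other, within cells and within sEVs. In cells, 26 members were higher and 17 lower in microglia than in neurons, where 19.9% and 51.8% of 18410 genes were called higher and lower. There were 14 higher and 22 lower in astrocytes than in microglia (43.6% and 20.8% of genes), and 14 were higher and 9 lower in astrocytes than in neurons (10.4% and 22.1% of genes). With every library scaled to an equal total the order turned: 11 members were higher and 31 lower in microglia than in neuron cells, and 37 were higher and 10 lower in astrocyte than in microglia cells. In astrocyte against neuron cells 15 were then higher and 3 lower. In sEVs, 20 members were higher and 21 lower in microglia than in neurons, where 13.6% and 45.3% of 15514 genes were called. There were 11 higher and 17 lower in astrocytes than in microglia (26.6% and 12.9%), and 6 were higher and 13 lower in astrocytes than in neurons (3.13% and 11.8%). Eif4e3, a cap-binding relative, had 1802, 2084 and 2973 normalized counts in microglia sEVs and 2032, 2168 and 1818 in microglia cells, against 378, 217 and 237 in neuron sEVs and 315, 337 and 276 in neuron cells. It was called between the cells but not between the sEVs (limma adjusted p = 6.1e-06 and 0.074), where the values did not overlap either. The fit of the sEVs also held astrocyte sEVs, at 239, 3.89 and 89.3. Eif6, which keeps ribosomal subunits apart, was likewise high in microglia, with a log2 difference, microglia minus neurons, of 2.36 ± 0.13 in cells and 2.26 ± 0.19 in sEVs (limma adjusted p = 7.6e-07 and 2.4e-05). Eef2 and Eef1g were not called between microglia and neuron cells (0.07 ± 0.15 and 0.09 ± 0.11, limma adjusted p = 0.69 and 0.5). As shares of the library, Eef2 took 0.0262% ± 0.00162 of microglia and 0.0403% ± 0.00895 of neuron cells, and Eef1g 0.0255% ± 0.00185 and 0.0381% ± 0.00261, lower in microglia with no overlap, so that these values depend on the scaling too. Between their sEVs they stood at -2.29 ± 0.15 and -2.22 ± 0.09, lower in microglia (limma adjusted p = 6.8e-06 and 1.9e-06). Eef1a1 and Pabpc1 were higher in microglia than in neuron cells, by 0.72 ± 0.10 and 1.92 ± 0.09, and lower in microglia than in neuron sEVs, at -1.46 ± 0.09 and -1.07 ± 0.19 (limma adjusted p = 5.3e-06 and 0.002). As a share of the library, Eef1a1 took 0.175% ± 0.0167 of microglia cells and 0.168% ± 0.00283 of neuron cells, which overlapped, so that its difference between these cells depends on the scaling. Eif4a1 was higher in microglia in both, by 1.48 ± 0.12 in cells and 3.54 ± 0.20 in sEVs. Neuron cultures held astrocyte markers, whose part in these pairs was not tested.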

How the data were processed

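Poly(A) RNA of sEVs and of cells from astrocyte, microglia and neuron cultures was measured in 18 libraries, 3 in each of 6 groups taken from the sample labels. The kit primes on the poly(A) tail, used 15 cycles of PCR, per the labels' protocols, and does not mark strand, so reads of a gene and of an overlapping antisense gene cannot be told apart. Salmon 1.8.0, DESeq2 and the build GRCm39 are named in the submitters' processing notes. The authors deposited 1 table of normalized counts, a non-negative signal per gene. These are not raw counts, and whole reads could not be recovered: 2.90 to 9.04% of the values under 100 were whole multiples of a library's commonest low value within a tolerance of 0.001. No count test was therefore run, and the precision of a value is given by the spread of 3 libraries. No column of per-sample values without a sample was used (0 columns); the deposited group means were left out. That of microglia sEVs equalled the mean of its 3 columns in 68.7% of genes, and in 100% once replicate 3 was read from the following row, while the replicates correlated at 0.865 to 0.899 as deposited.

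Values were tested as log2(value + 1) with limma 3.58.1 (R 4.3.3; lmFit and eBayes with a trend, two-sided), after a filter of at least 10 in at least 3 libraries. A single fit of 18 libraries gave the sEV effects and their differences, and fits of 9 libraries gave the cell type pairs among cells (18410 genes) and among sEVs (15514 genes). Each fit shared the spread of a gene over its groups, so the SE of an sEV effect is the same in the 3 cell types. Replicates correlated less in microglia sEVs (0.865 to 0.899) than in neuron sEVs (0.958 to 0.965). A shared SE can understate the spread of a noisier group. P-values were adjusted by Benjamini-Hochberg over all genes tested. The fits were also run on simulated data in which a gene had the same spread in every group. That run cannot tell how they behave where 1 group is noisier. Shares, ratios, windows and correlations were computed in Python 3.11.15 with SciPy 1.17.1, and near-identical transcripts (at least 95% identity) were found with blastn 2.17.0 in GENCODE transcripts of another build, GRCm38, which gave lengths and GC only. Promoter windows came from RefSeq on GRCm38.p6, and no coordinate was converted.

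The members, the TOP list, the role lists and the tests were chosen with earlier results of these data known. Full values are given for a fixed set of members and for the 4 largest called changes in each direction among members whose higher group averaged 50 or more; values of Eef1b2, Eef1d, Eif4b, Eif4e, Eif4e2, Eif4e3, Eif3c, Eif1a, Eif2s1, Eif2s2 and Eif2b5 were added after they were seen. Of the pathway genes outside the members, the 3 largest called changes each way are named. The alternatives were other pseudocounts, filters, scalings, variance settings, a replicate block, library weights, fits of a pair alone and each library left out.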

Additional observations from a re-analysis of the deposited data

Results flagged for a closer look

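For 19 of the 63 members tested the vesicle effect differed between the 3 cell types by limma's F test of the difference itself, with p adjusted by Benjamini-Hochberg over all 19612 genes, where 21.6% of all genes passed. Among the elongation factors and Tpt1 the adjusted p was 1.2e-07 for Eef1a1, 1.3e-07 for Eef1g, 3.3e-06 for Eef2, 4.1e-05 for Eef1b2, 0.00024 for Tpt1 and 0.045 for Eef1d. Of these, Eef1a1, Eef1g, Eef1b2 and Tpt1 were called smaller in astrocytes than in neurons, with effects of 1.33 in astrocytes, 1.17 in microglia and 2.98 in neurons for Eef1b2 and of 2.20, 1.91 and 3.71 for Tpt1. The call of Eef1d was lost in 19 of 29 alternatives.

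In the cap-binding machinery the adjusted p was 4.3e-07 for Pabpc1, 3.7e-05 for Eif4a1, 0.00033 for Eif4b, 0.0021 for Eif4h, 0.00503 for Eif4ebp2, 0.0066 for Eif4a2 and 0.027 for Eif4ebp1. Pabpc1, Eif4b, Eif4h and Eif4ebp2 rose in astrocyte and neuron sEVs and were not called in microglia. In eIF3 it was 0.00043 for Eif3h, 0.00049 for Eif3k, 0.0096 for Eif3i and 0.018 for Eif3f, which were largest in neurons, at 2.05 for Eif3k and 1.57 for Eif3i, against 1.20 and 0.74 in astrocytes and 0.32 and 0.44 in microglia. In eIF2 it was 0.00095 for Eif2s1, which fell in neuron sEVs and stood at 0.48 in microglia, and 0.017 for Eif2s3x, at 0.49 in astrocytes, -0.59 in microglia and 0.52 in neurons.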

How the results depend on the processing

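Among the values of single genes, 2212 kept their side of the threshold, 124 lost a call, 36 gained one and 2 turned. A turn was counted only where the value was called in either fit. Among counts and shares 555 stayed within their limits and 38 moved. The 2 that turned did so in microglia under quantile normalization: Eef1a2 to 1.92 (limma adjusted p = 0.049) and Eif4ebp2 to 1.45 (0.004); neither was called in the fit as reported, and Eef1a2 was listed at 0 in all microglia libraries. With equal totals 24 members rose in microglia sEVs, and between cells 37 were higher and 10 lower in astrocytes than in microglia, 3 lower in astrocytes than in neurons, 11 higher and 31 lower in microglia than in neurons, and between sEVs 7 lower in astrocytes than in neurons. With equal totals without the highest genes, 8 members fell for the mean, 25 rose in microglia sEVs, 35 were higher and 13 lower in astrocyte than in microglia cells, 3 lower in astrocyte than in neuron cells, 16 higher in microglia than in neuron cells and 19 higher in astrocyte than in microglia sEVs. With quantile normalization 13 were lower in astrocyte than in microglia cells and 4 lower in astrocyte than in neuron cells. With library weights 4 rose in microglia and 20 fell in neuron sEVs. With the libraries of a pair alone 3 fell in astrocytes and 1 in microglia. Without a variance trend 2 fell in astrocytes, 5 rose in microglia, 7 were higher and 4 lower in astrocyte than in neuron cells, and 3 higher and 4 lower in astrocyte than in neuron sEVs. Without astrocyte sEV replicates 2 and 3, a fit chosen after seeing the data, 7 were higher in astrocyte than in microglia sEVs. With 1 library left out in turn, 25 to 31 members rose and 11 to 15 fell for the mean, 17 to 22 rose and 2 to 9 fell in astrocytes, 8 to 16 rose in microglia, 7 to 13 were higher and 5 to 9 lower in astrocyte than in neuron cells, 2 to 7 higher and 8 to 15 lower in astrocyte than in neuron sEVs, and 16 to 23 passed the F test. Same-numbered sEV and cell libraries correlated at -0.0396 to 0.0445 in their deviations from the group means, and differently numbered ones at -0.0567 to 0.0549. The numbers were therefore not taken as pairs. In neurons the same-numbered ones, at 0.00923 to 0.0445, lay above the others, at -0.045 to 0.00495, so pairing there is not settled. With the replicate block 26 members rose and 14 fell for the mean. The cause of these changes was not tested, and the read depth of the libraries is not known.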
